A study of Homo sapiens with 6 samples.

Results

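The regions described here are the ac4C peaks that the authors' peak lists place in a 5' UTR, the stretch of an mRNA between its cap and its start codon. They were taken from the acRIP-seq peak lists of SW480 and DLD-1, 2 epithelial cell lines from human colorectal tumours. The SW480 list held 105 such peaks among 9536 peaks of any annotation, and the DLD-1 list held 215 among 13964. Peaks that overlapped by at least 1 base on the same strand, block by block, were counted once, which left 297 regions on 297 host genes. Of these regions, 12 were found in both lines, 89 only in SW480 and 196 only in DLD-1.

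Both lines were wild type and untreated, and RNA of each line was sequenced as Input, after immunoprecipitation of fragmented RNA with an antibody against ac4C (acRIP-seq), and after immunoprecipitation of the acetyltransferase NAT10 with its bound RNA (RIP-seq). Each of these 6 groups held 1 library, so the comparisons below set libraries side by side, and no p-value was computed. Intervals of shares are 95% Wilson intervals and cover counting error only, since PCR copies are not independent molecules. Intervals of medians are order-statistic intervals over genes, which are not replicates. The epithelial markers EPCAM, KRT8, KRT18 and CDH1 had at least 52.3 FPKM in both Inputs, in each of the 2 tables that list them, and PTPRC, CD3E and HBB were at 0 there. Of 7 epithelial markers 5 to 7 were at 1 FPKM or more in each column of values, and of 10 markers of other cells 0 or 1.

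The labels of the RIP and Input libraries go against each other. Across 16196 protein-coding genes, log2(FPKM + 1) of the library labelled RIP SW480 had a Pearson correlation of 0.871 with the Input labelled SW480 and 0.944 with that labelled DLD-1. The library labelled RIP DLD-1 had 0.856 with its own Input and 0.951 with the other. The Input columns of the acRIP experiment ran with the other Input columns by label, at 0.859 and 0.934 for RIP SW480 and 0.85 and 0.942 for RIP DLD-1. KRT20, a differentiation marker, stood at 29.2 FPKM in Input SW480, 0.0426 in Input DLD-1, 0 in RIP SW480 and 23.9 in RIP DLD-1, and at 20.5 and 0.0501 FPKM in the acRIP Inputs. Whether the RIP or the Input labels are right cannot be told apart here, so every Input level below is that of the library labelled with the line. Whether the acRIP libraries behind the peak lists share the exchange was not tested.

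N4-acetylcytidine (ac4C) is an acetylated cytidine that NAT10 writes on ribosomal RNA, transfer RNA and, in part, mRNA. The 5' UTR is the part of an mRNA that the scanning ribosome crosses before it reaches the start codon, and its upstream start codons, its folding and its protein-binding elements are known to set how often an mRNA is translated. Since acetylation changes how cytidine pairs, acetylated positions near the start codon have been studied for their effect on initiation.

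The lists also give the sites of a 12-base pattern, CNNCNNCNNCNN, in each peak. No genome was used here, so letters are shown only for sites that lie within RefSeq promoter windows (GRCh38.p14, 250 bases before to 50 after a start), of the host or of a neighbouring gene. In those windows, 28 of 28 listed sites of SW480 5' UTR peaks and 42 of 42 of DLD-1 5' UTR peaks matched the pattern on the strand of the host. The sites below come from the region in SMPD4, which was found in both lines, from JTB, one of the DLD-1 regions with the highest fold, and from DRAM1 and SPRED1, the regions of a single line with the most listed sites in these windows, chosen after their values were seen, where 2 of 5 sites and 3 of 6 are shown. Capitals mark the 12 bases of the pattern.
SMPD4, both lists, chr2:130182274-130182303, minus strand: ccctacgccCTGCGCCGCCATccccgcggc
SMPD4, both lists, chr2:130182236-130182265, minus strand: aggtgcgctCCGCCCCGCCGCgccccctag
JTB, DLD-1 list, chr1:153977498-153977527, minus strand: gccgcgagcCCCCGCCGGCCCttcctccag
DRAM1, SW480 list, chr12:101877376-101877405, plus strand: ccagtgaccCCACGCCGCCCGtccgcgccc
DRAM1, SW480 list, chr12:101877458-101877487, plus strand: cgtcccctcCGGCGGCTCCGTagtcgcgtc
SPRED1, DLD-1 list, chr15:38252677-38252706, plus strand: ccggcaggaCCGCGCCGCCGCtgcccggag
SPRED1, DLD-1 list, chr15:38252741-38252770, plus strand: agcggagctCTGCTTCCTCCTcgccgcatc
SPRED1, DLD-1 list, chr15:38252794-38252823, plus strand: tcccgggttCTCCGCCCGCCGactccttcc

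Reading the bases of the 5' UTR peaks within these windows without overlap gave 28 matches in SW480 and 42 in DLD-1, the listed numbers, whereas counting overlapping matches gave 47 and 78. In these stretches cytidine made up 30.3% of the bases in SW480 and 32.6% in DLD-1, against 28.0% in the 50 transcribed bases of all 35116 promoter windows. Non-overlapping matches numbered 9.49 per kb in SW480 and 8.37 per kb in DLD-1, against 6.11 per kb in those transcribed bases. The peak stretches lie anywhere in the 300-base windows, however. Overlapping matches numbered 15.9 per kb in the SW480 stretches and 15.5 per kb in the DLD-1 stretches. They numbered 11.2 per kb in the transcribed bases and 14.55 per kb in all whole windows, so over whole windows the margin was smaller. A match cannot cross the end of a stretch, so short stretches have room for fewer matches per kb. The part of stretch length in these margins was not tested. The pattern occurred in 25.7% of all 50-base transcribed stretches and in 74.9% of all 300-base windows, so a match is common in such sequence.

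Over all 5' UTR peaks, 77 of 105 in SW480 (73.3%, 64.2 to 80.9) and 142 of 215 in DLD-1 (66.0%, 59.5 to 72.1) held at least 1 listed site. Among peaks of any annotation the shares were 56.2% and 55.1%. Peaks in coding sequence (CDS) held a site in 62.1% of cases in SW480 and 58.0% in DLD-1, and 3' UTR peaks in 50.7% and 49.3%. The interval of the 5' UTR share lay above that of the 3' UTR share in both lists. It also lay above that of the CDS share by a narrow margin, with bounds of 64.2% and 64.1% in SW480 and of 59.5% and 59.4% in DLD-1. Peaks annotated as exon held a site in 62.0% of cases in SW480 (59.9 to 64.1) and 61.1% in DLD-1 (59.2 to 62.95). In DLD-1 that interval overlapped the one of 5' UTR peaks. Per kb of peak, 5' UTR peaks had 8.94 sites in SW480 and 7.49 in DLD-1, more than CDS peaks (6.03 and 5.24) and 3' UTR peaks (4.37 and 3.69). The median length of 5' UTR peaks was 180 bases in SW480 and 181 in DLD-1, against 181 and 210 for CDS peaks and 210 and 211 for 3' UTR peaks, so the higher share did not come with longer peaks. Base composition of CDS and 3' UTR peaks was not analysed here.

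**Figure D1:**
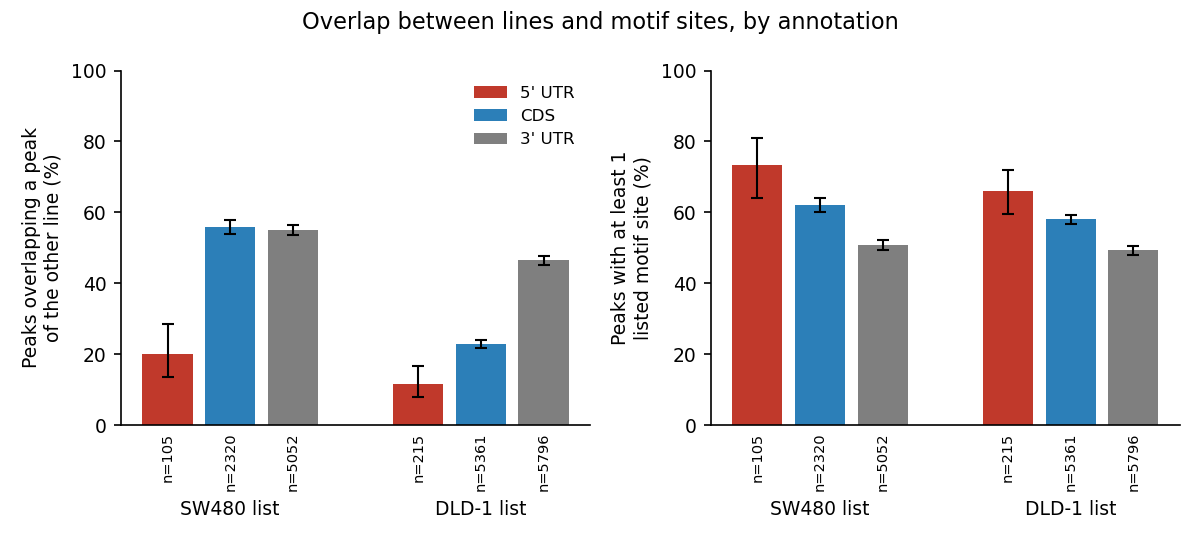
Left, share of peaks (%) that overlap a peak of any annotation in the other line. Right, share of peaks (%) with at least 1 listed site of the 12-base pattern. Bars give the share by annotation and list, n is the number of peaks, and error bars are 95% Wilson intervals. The 5' UTR bars are the lowest on the left (20.0% and 11.6%) and the highest on the right (73.3% and 66.0%) in both lists.

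The regions richest in sites were named by that number. SMPD4, which encodes a neutral sphingomyelinase, had 14 sites in 511 bases in both lists. The edge of its peak lay at -993 bases from the nearest listed start, and a peak of MZT2B covered the same bases on the opposite strand. LMNB1, which encodes lamin B1 of the nuclear lamina, had 9 sites in the 447 bases of its DLD-1 peak. The transcription factor gene GATA3 had 9 sites in the 478 bases of its DLD-1 peak and 4 in the 180 bases of its SW480 peak. FTH1, the ferritin heavy chain whose 5' UTR carries an iron-responsive element, had 8 sites in 180 bases, and CDCA8, a subunit of the chromosomal passenger complex, had 7 in 596 bases. PPP2R5A and HNRNPAB also had 7, in 270 and 537 bases of their DLD-1 peaks, and come after CDCA8 in genome order. FTH1 had at the same time the lowest fold of all SW480 5' UTR peaks, 1.33, with a listed p-value of 1e-169. Its Input level was 934 FPKM in SW480 and 2361 FPKM in DLD-1, where no FTH1 peak was listed.

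The 5' UTR peaks were a small part of each list. They made up 1.10% of SW480 peaks (0.911 to 1.33) and 1.54% of DLD-1 peaks (1.35 to 1.76). They were also 228 of the 15622 peaks of the authors' list named for the group, read here as called on the pooled libraries. The SW480 peaks were also the weaker ones of their list. Among SW480 peaks with a p-value under the list's median, 5' UTR peaks made up 0.548%, whereas in DLD-1 the share under the median was 1.36%. The median listed p-value of 5' UTR peaks was 5.8e-06 in SW480 and 4.1e-07 in DLD-1, against 3.7e-10 and 2.6e-08 over the lists. A listed FDR below 0.05 was missed by 19 of the 105 SW480 peaks and by 11 of the 215 DLD-1 peaks.

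Fold, the authors' ratio of acRIP over Input within a peak, was also lower in 5' UTR peaks than in 3' UTR peaks. Its median was 13.5 in SW480 (quartiles 8.33 and 22.9) and 12.6 in DLD-1 (7.08 and 22.4). For CDS peaks it was 14.6 and 12.8, and for 3' UTR peaks 21.9 and 16.4. Within the same gene the order was alike. Of 50 SW480 hosts that also had a 3' UTR peak, the highest 5' UTR fold was below the highest 3' UTR fold in 39 and above it in 10. Of 114 such DLD-1 hosts it was below in 87 and above in 27. The median difference was -2.16 on the log2 scale in SW480 and -1.27 in DLD-1. Against the highest CDS fold of the same host, the highest 5' UTR fold was lower in 20 of 27 SW480 hosts and in 63 of 104 DLD-1 hosts. A highest fold can only rise with the number of peaks, which differed between annotations. No SW480 host and 8 DLD-1 hosts had 2 or more 5' UTR peaks, whereas the 5052 SW480 3' UTR peaks lay on 3943 hosts. The number of peaks was not balanced in these comparisons. For 40 of 105 SW480 hosts and 44 of 206 DLD-1 hosts, the 5' UTR peak was the only peak of the gene.

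Many folds were small whole multiples of one number. In the SW480 list 35.7% of all peaks had a fold on whole steps of 1.041, and in the DLD-1 list 34.0% on whole steps of 0.787. Only pairs of a fold and its commonest p-value that at least 5 peaks of the list share were counted. The origin of these steps was not tested. Among 5' UTR peaks, 58 of 105 (55.2%, 45.7 to 64.4) lay on such steps in SW480 and 77 of 215 (35.8%, 29.7 to 42.4) in DLD-1. These peaks held a median of 13 steps in SW480 and 18 in DLD-1. GAR1, at 15 steps and a fold of 11.8, is an example from DLD-1.

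**Figure D2:**
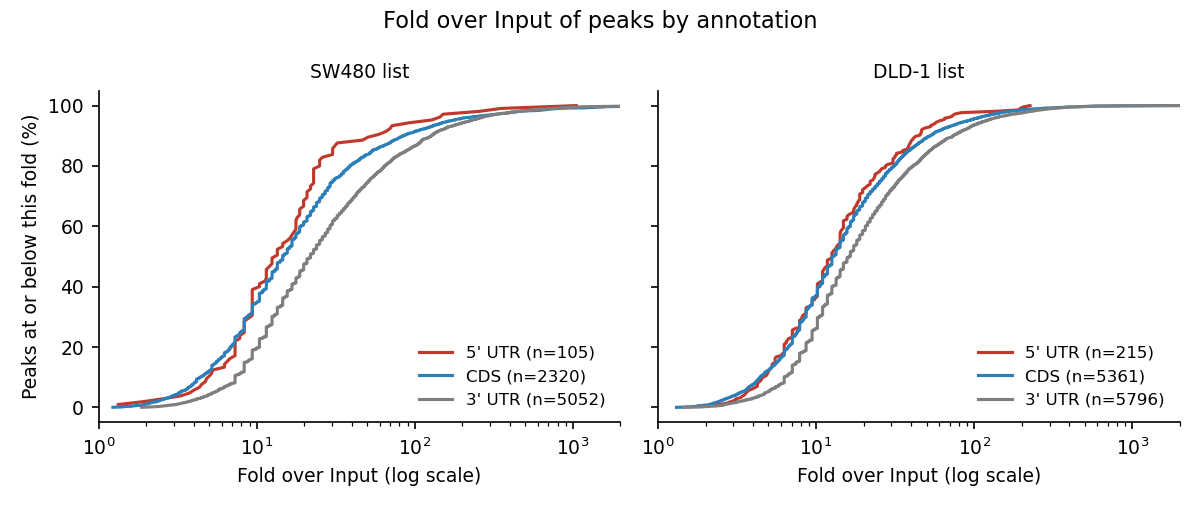
Cumulative share of peaks (%) at or below each fold over Input (log scale), by annotation, for the SW480 list (left) and the DLD-1 list (right). The 5' UTR curves reach 50% at 13.5 and 12.6, to the left of the 3' UTR curves (21.9 and 16.4), and in DLD-1 the 5' UTR curve runs beside that of CDS peaks.

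Few 5' UTR peaks were found in both lines. Of 105 SW480 peaks, 21 overlapped a DLD-1 peak of any annotation (20.0%, 13.5 to 28.7), whereas 55.3% of all SW480 peaks did so. Of 215 DLD-1 peaks, 25 overlapped an SW480 peak (11.6%, 8.0 to 16.6), against 36.5% of all DLD-1 peaks. CDS peaks overlapped in 56.0% and 22.9% of cases and 3' UTR peaks in 55.0% and 46.5%. With the partner required to be a 5' UTR peak too, 13 SW480 peaks (12.4%, 7.38 to 20.0) and 12 DLD-1 peaks (5.58%, 3.22 to 9.50) overlapped.

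The host genes recurred more often than the peaks. Some peak of any position was listed for the host in the other line for 69 of 105 SW480 peaks (65.7%) and 158 of 215 DLD-1 peaks (73.5%). Over all peaks these shares were 78.3% and 75.3%. The Input level of most hosts was within 2-fold between the lines. For the 84 SW480 peaks without an overlap, the median log2 ratio of SW480 to DLD-1 Input of the host was 0.06, with 5 hosts at least 2-fold higher and 8 at least 2-fold lower. For the 190 such DLD-1 peaks, the median log2 ratio of DLD-1 to SW480 Input was -0.01, with 21 higher and 17 lower. The same counts were not made over all genes, so they do not set these hosts apart from other genes. Among hosts with at least 10 FPKM in both Inputs, 5 of 27 SW480 peaks (18.5%) and 9 of 83 DLD-1 peaks (10.8%) overlapped. With the same filter, CDS and 3' UTR peaks overlapped in 68.6% and 70.4% of cases in SW480. In DLD-1 these shares were 23.9% and 55.35%.

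Overlap differed by kind of peak, among 5' UTR peaks and among the others alike. Peaks of more than 1 block, which cross an exon junction, overlapped in 14 of 40 cases in SW480 (35.0%, 22.1 to 50.5) and 20 of 101 in DLD-1 (19.8%, 13.2 to 28.6). Single-block peaks did so in 7 of 65 (10.8%, 5.32 to 20.6) and 5 of 114 (4.39%, 1.89 to 9.86). Peaks on whole steps of the fold overlapped in 3 of 58 cases in SW480 (5.17%) and 2 of 77 in DLD-1 (2.60%), and the others in 18 of 47 (38.3%) and 23 of 138 (16.7%). CDS and 3' UTR peaks split in the same direction, with 31.7% and 29.9% overlapping on whole steps and 66.4% and 71.1% off them in SW480, and 13.2% and 30.1% against 26.6% and 57.9% in DLD-1. Within each of these subsets the 5' UTR share was the lowest of the 3 annotations, although for DLD-1 peaks of more than 1 block its interval included the CDS share of 23.8%. The part of these traits in the low overlap was not tested.

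Another 21 regions of a single line had a partner peak in the other line that carried a different annotation, 8 from SW480 and 13 from DLD-1. The partner lay on the same gene in 8 and 12 cases, and 6 and 12 of these 5' UTR peaks had more than 1 block, so that one label stood for several exons. The 4 DLD-1 peaks with the highest fold belong here. USMG5, a small subunit of mitochondrial ATP synthase, had a fold of 226 in DLD-1 and overlapped a 3' UTR peak of 886 in SW480. The mitochondrial ribosomal protein gene MRPS21 had 204 against a CDS peak of 79.6, ANKRD2 196 against a CDS peak of 253, and CDC26, a subunit of the anaphase-promoting complex, 195 against a CDS peak of 43.7. The ANKRD2 peak spanned 9 blocks. These genes were named after their values were seen. These regions had a peak over the same bases in both lines under different labels.

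A start of the host was listed in RefSeq for 81 SW480 peaks and 173 DLD-1 peaks. The 5' edge of the peak lay within 250 bases of the nearest start for 41 (50.6%, 40 to 61.2) and 88 (50.9%, 43.5 to 58.2) of them, against 2.35% and 4.06% of all peaks with a listed start. Since the annotation itself places these peaks upstream of the coding sequence, nearness to a start is partly given by the choice. Another 30 SW480 and 70 DLD-1 peaks began further downstream, as genomic distance that includes introns, and 10 and 15 began further upstream of the nearest listed start, which need not be the first start of the gene. SMPD4 is one of the latter, with its peak edge at -993 bases in both lists. Distances to the start codon were not analysed here.

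**Figure D3:**
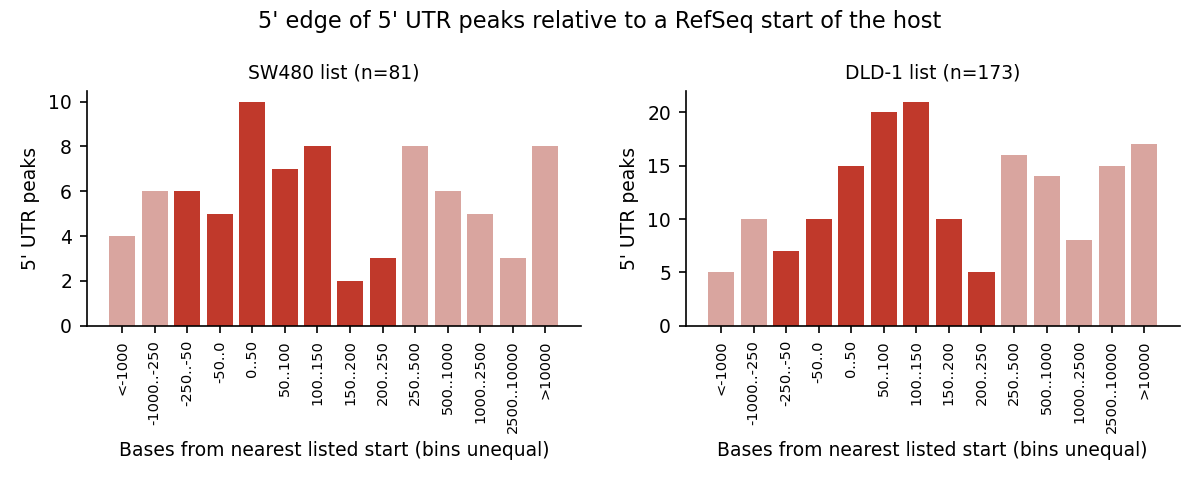
Number of 5' UTR peaks by the distance (bases, in bins of unequal width, introns included) of their 5' edge from the nearest RefSeq start of the host, in the SW480 list (81 peaks) and the DLD-1 list (173 peaks). Dark bars mark the 250 bases to either side of the start, which hold 41 and 88 peaks, and the fullest 50-base bins hold 10 (0 to 50) and 21 (100 to 150).

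In 40 of the 297 regions the same list gave a peak to a second gene over the same bases, on the same strand in 18 and on the opposite strand in 23. By peak, this held for 19 SW480 peaks (18.1%, 11.9 to 26.5) and 35 DLD-1 peaks (16.3%, 11.9 to 21.8), against 12.9% and 11% of all peaks. Peaks annotated as exon had similar shares, 18.3% and 17.1%. Whether the counting used strand is not given in the sources used here, so reads of overlapping genes cannot be told apart in these regions.

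The 12 regions found in both lines are given with both folds. ATP5J, a subunit of mitochondrial ATP synthase, had the most even pair at high fold, 128 in SW480 and 141 in DLD-1, over the same 3 blocks of 268 bases. SMPD4 had 349 in SW480 and 56.1 in DLD-1 over the same 511 bases, with a peak of MZT2B on the opposite strand. The region of HAUS7 and TREX2, an augmin subunit of the mitotic spindle and a DNA exonuclease with overlapping transcripts, had 257 on HAUS7 in SW480 and 30.7 on TREX2 in DLD-1, and the Input of HAUS7 was at 0.0458 FPKM in SW480 and 0 in DLD-1. ANAPC15, a subunit of the anaphase-promoting complex, had 30.2 and 53.1, with LRTOMT on the opposite strand. These 4 regions had folds above the upper quartile of 5' UTR peaks in both lists, and the higher line differed between them.

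MMP14, a membrane-anchored metalloprotease that degrades matrix, had a fold of 151 in SW480 and 23.2 in DLD-1. The MMP14 peaks began 2 and 62 bases after a listed start. The level of the gene in Input was 0.468 FPKM in SW480 and 9.48 FPKM in DLD-1, in the order opposite to the folds, whereas the RIP libraries held 22.8 and 1.94 FPKM, in the same order as the folds. The part of the level in the folds was not tested. PPM1F, a serine/threonine phosphatase, had 21.9 and 19.7. The nucleolar RNA helicase DDX21 had 17.7 and 27.5, with peak edges 26 and 86 bases after its start. SRRM2, a large protein of nuclear speckles that takes part in splicing, had 17.2 and 19.7, with edges 51 and 81 bases after its start. MKKS, a chaperonin-like protein, had 16.3 and 11.

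GATA3 had 10.4 and 65.3, although its Input was at 0 FPKM in SW480 and 0.0284 FPKM in DLD-1. The SW480 value lay on 10 whole steps of the fold. The other two were TNIP2, a regulator of NF-κB signalling, with 4.0 and 3.71, and TRAP1, a mitochondrial chaperone of the HSP90 family, with 2.55 and 14.2. Of the 12 regions, the fold was higher in SW480 for SMPD4, HAUS7/TREX2, MMP14, PPM1F, MKKS and TNIP2 and higher in DLD-1 for the other six. Folds were taken from the list labelled with each line, and their difference carries no replicate check. Whether the acRIP and Input libraries behind a list came from the same line was not tested.

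**Figure D4:**
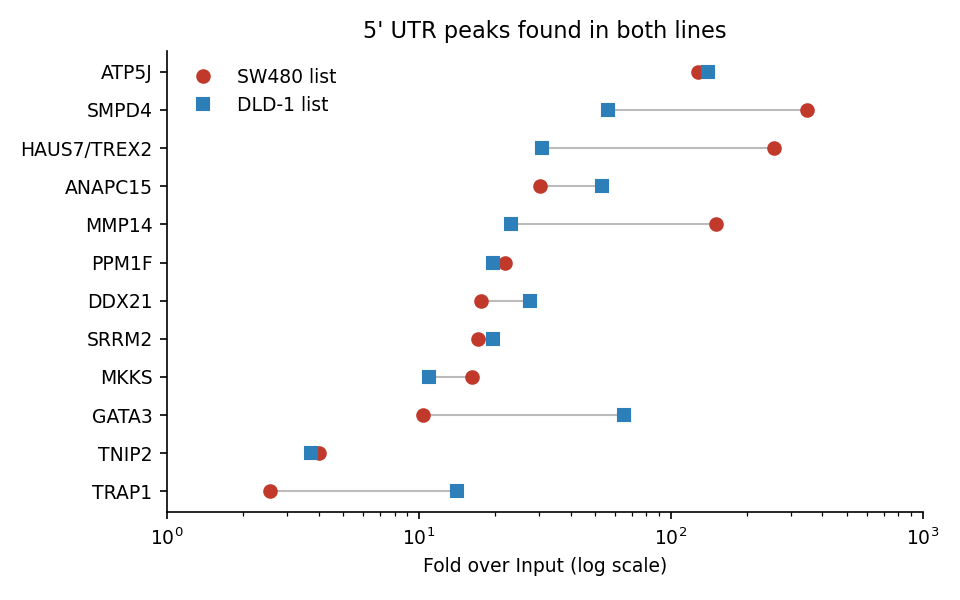
Fold over Input (log scale) in the SW480 list (circles) and in the DLD-1 list (squares) for the 12 regions found in both lines, joined by a line and ordered by the smaller fold. ATP5J (128 and 141) and SMPD4 (349 and 56.1) stand at the top, and TNIP2 (4.0 and 3.71) and TRAP1 (2.55 and 14.2) at the bottom.

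Among regions found only in SW480 with no peak of any kind over them in DLD-1, BCL7C had the highest fold. BCL7C, a subunit of BAF chromatin remodelling complexes, reached 1050 over 869 bases in 6 blocks, with a peak of MIR762HG on the opposite strand. Its Input was 3.41 FPKM in SW480 and 2.63 FPKM in DLD-1. AL513523.10 had 144, with INTS3 on the opposite strand. Its Inputs were 42.9 and 25.9 FPKM in the acRIP experiment, whereas both Inputs under RIP were at 0 FPKM. TFDP1, the dimerization partner of E2F factors, had 91.6 at Inputs of 15.7 and 12.2 FPKM. The chemokine receptor gene CCR10 had 71.8 at Inputs of 0.347 and 0 FPKM. PHLDA3, a p53 target that restrains AKT, had 65.6 at Inputs of 0 FPKM in SW480 and 16.3 FPKM in DLD-1. Of these, BCL7C and TFDP1 were similarly abundant in both Inputs, and PHLDA3 was listed at 0 in the Input labelled with the line that had its peak. In the RIP libraries PHLDA3 stood the other way, at 26.8 FPKM under the label SW480 and 0.556 FPKM under DLD-1.

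Among regions found only in DLD-1 with no SW480 peak of any annotation over them, the highest fold was that of ZNF544 and AC020915.6, whose peaks lie over the same bases, at 83.4. The Input of AC020915.6 was 0.391 FPKM in SW480 and 0 FPKM in DLD-1, the line with the peak. JTB, a membrane protein gene named for a translocation breakpoint, had 75.5 at Inputs of 51.8 FPKM in SW480 and 48.3 FPKM in DLD-1. CDCA8 had 73.2 at 31.8 and 10.8 FPKM. TCF19, a gene induced late in the G1 phase, had 71.6 at 7.14 and 3.66 FPKM. LMNB1 had 64.5 at 34.8 and 15.3 FPKM. The last 3 were higher in the Input labelled SW480, and in the RIP libraries they were higher under the label DLD-1. JTB, TCF19 and LMNB1 each had some other peak in SW480, whereas CDCA8 had none.

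Genes of growth and translation control with a 5' UTR peak were counted beside all genes. Of the 16324 genes above 0 in both Inputs, 267 (1.64%) had a 5' UTR peak in either line, and 2.17% of the protein-coding ones did. Of 46 cell cycle genes 4 had one (8.70%, 3.43 to 20.3). They were CDCA8, TPX2, CDKN2C and PKMYT1. TPX2, a spindle assembly factor, had 38.8 in DLD-1 over 6 blocks. CDKN2C, an inhibitor of CDK4 and CDK6, had 3 separate peaks, 35.4 and 30.7 in DLD-1 and 8.33 in SW480, although its Input was only 0.356 FPKM in SW480 and 1.95 FPKM in DLD-1. PKMYT1, a kinase that inhibits CDK1, had 8.65 in DLD-1.

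Of 49 translation initiation factors, EIF1AX and EIF5 had a 5' UTR peak (4.08%, 1.13 to 13.7), both in DLD-1. EIF1AX, a factor of the scanning ribosome, had 18.5 and overlapped an SW480 peak annotated as CDS. EIF5, which triggers GTP hydrolysis at the start codon, had 5.29. Among 29 growth regulators known for control through their 5' UTR, ODC1 and RUNX1 had one (6.90%, 1.91 to 22.0). ODC1, the first enzyme of polyamine synthesis, had 4.74 in SW480 and overlapped a CDS peak in DLD-1, and RUNX1 had 4.72 in DLD-1. The single host among 11 genes of the ac4C writer and its small nucleolar partners was GAR1, a protein of box H/ACA particles, with 11.8 in DLD-1. Among 54 genes of the Wnt pathway it was the kinase gene CSNK1A1, with 2.87 in DLD-1.

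None of the 14 genes that the study followed, KIF23 and MYC among them, had a 5' UTR peak in either list, and with 14 genes the interval reaches 21.5%. None of the 7 epithelial markers had one. COL1A1, a collagen gene listed as a marker of other cells, had one in SW480 with a fold of 12.5, at an Input of 0.278 FPKM. The lower bound of the cell cycle list, 3.43%, lay above the share of protein-coding genes, as did that of the other-cell markers, of which 2 were above 0 in both Inputs (1 of 2, 9.45 to 90.5). The lists were written with earlier results of these data known, so these bounds describe the counts and are no test of a list. With an Input of at least 1 FPKM in both lines, CDKN2C dropped out, and 3 of 45 cell cycle genes remained (6.67%, 2.29 to 17.9), an interval that includes the 2.42% of protein-coding genes.

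Since the RIP and Input labels go against each other, NAT10 RIP ratios are given over the Input of the same label and over that of the other. Of the 12324 genes with an Input of at least 1 FPKM in both lines, 78 were hosts of an SW480 5' UTR peak and 176 of a DLD-1 peak. On the scale log2((RIP FPKM + 1)/(Input FPKM + 1)), the SW480 hosts had a median of 0.37 (order-statistic interval 0.03 to 0.72) in the library labelled SW480, against 0.18 for protein-coding genes. The DLD-1 hosts had 0.29 (0.06 to 0.46) in the library labelled DLD-1, against 0.07. RIP was at least 2-fold above Input for 17 of the 78 hosts (21.8%) and 44 of the 176 (25%), against 15.6% and 15.1% of all genes, and 17.4% and 16.7% of protein-coding genes. It was at least 2-fold below Input for 6 and 13 hosts (7.69% and 7.39%), against 16.0% and 19.2% of all genes and 9.17% and 12.8% of protein-coding genes. With the scaled Inputs of the acRIP experiment the excess above Input did not hold in SW480, where 13 hosts (16.7%) stood against 18.6% of all genes and 19.1% of protein-coding genes. In DLD-1 it narrowed to 34 hosts (19.3%), against 17.7% and 18.0%.

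Set over the Input with the opposite label, the host medians were 0.20 (-0.01 to 0.47) and 0.24 (0.14 to 0.37), against 0.11 and 0.09 for protein-coding genes. Hosts at least 2-fold above that Input numbered 10 (12.8%) and 26 (14.8%), against 9.24% and 9.36% of all genes and 10.1% and 10% of protein-coding genes. The host medians stood above those of protein-coding genes under both pairings. The interval of the host median included the protein-coding value in SW480 under both pairings and in DLD-1 under its own label, where the lower bound was 0.06, and lay above it in DLD-1 only over the Input carrying the opposite label.

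Of the 243 hosts of a 5' UTR peak in either line that passed the Input filter, 119 (49%) had ratios of opposite sign in the 2 RIP libraries when each was set over the Input of its own label. Over the opposite Input, 38 (15.6%) did. Over all genes these shares were 43.6% and 18.3%. The hosts at least 2-fold above Input in both libraries numbered 17 (7.0%) over their own label and 23 (9.47%) over the other, against 3.55% and 5.59% of all genes. All genes include ones that are not protein-coding. Over the Input of the same label, the medians of all genes were 0.05 and -0.05, against 0.18 and 0.07 for protein-coding genes. The shares in this paragraph were not computed for protein-coding genes alone.

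**Figure D5:**
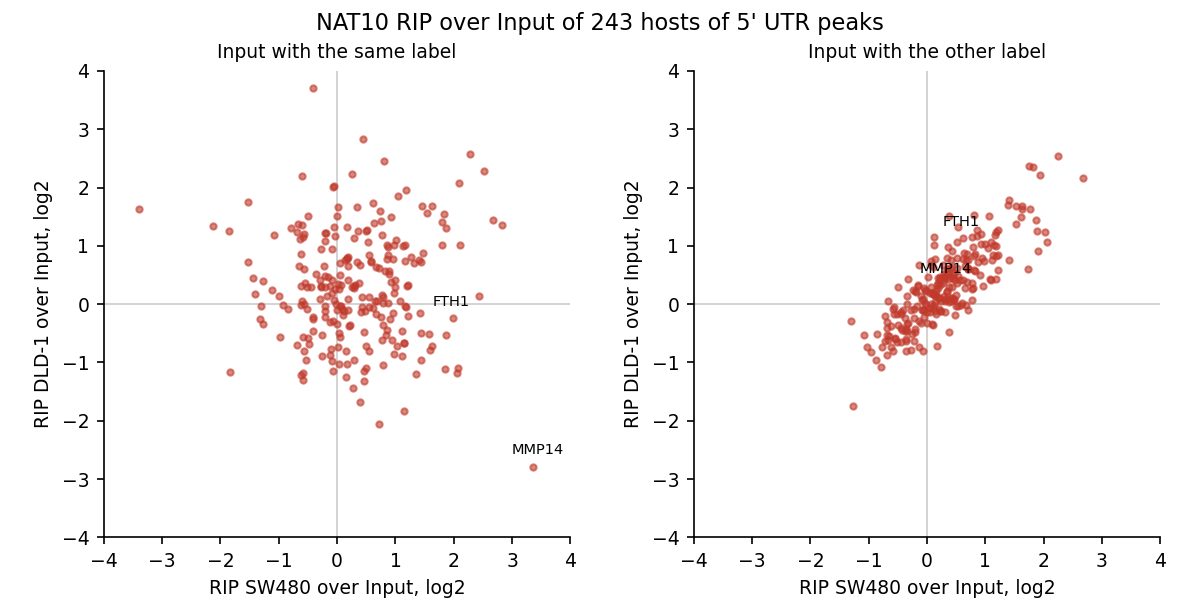
NAT10 RIP over Input (log2 of FPKM + 1) of 243 hosts of 5' UTR peaks, in the library labelled SW480 (x axis) and the library labelled DLD-1 (y axis), over the Input of the same label (left) and of the other label (right). Each point is a host. On the left 119 hosts have opposite signs, with MMP14 at 3.35 and -2.79, and on the right 38 do.

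Single hosts show both cases. ANAPC15 had 17.3 FPKM in the library labelled RIP SW480 and 15.9 FPKM in that labelled RIP DLD-1, and 2.77 and 1.85 FPKM in the Inputs, a log2 ratio of 2.28 and 2.57, and 2.68 and 2.16 over the other Input. ATP5J had 30.2 and 26.1 FPKM in RIP against 7.72 and 8.23 FPKM in Input, a log2 ratio of 1.84 and 1.55. EIF1AX had 24.5 and 23.1 FPKM against 6.01 and 8.70 FPKM, a log2 ratio of 1.87 and 1.31. These 3 hosts were above both Inputs in both RIP libraries, as were GAR1 (1.79 and 1.02 over the Input of the same label) and MKKS (1.16 and 1.02). SRRM2 was below both, with 93.7 and 101 FPKM in RIP against 339 and 227 FPKM in Input, a log2 ratio of -1.84 and -1.16. Over the scaled Inputs of the acRIP experiment with the same label, all of these hosts kept their sign, mostly at a smaller size. There ANAPC15 had 1.22 and 0.67, ATP5J 1.39 and 0.65, EIF1AX 0.96 and 0.69, MKKS 0.95 and 0.79, and SRRM2 -1.31 and -0.69. Of the hosts above Input, only GAR1 stayed at least 2-fold above it in the library labelled DLD-1, at 1.22.

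For MMP14 and FTH1 the pairing decided the value. MMP14 had 22.8 and 1.94 FPKM in RIP and 1.34 and 19.3 FPKM in Input, so its log2 ratio was 3.35 and -2.79 over its own label and 0.23 and 0.33 over the other. FTH1 had 6431 and 3543 FPKM in RIP and 1616 and 4179 FPKM in Input, with ratios of 1.99 and -0.24 over its own label and 0.62 and 1.13 over the other. The ac4C peak of FTH1 was listed in SW480, and the MMP14 fold was higher in SW480, the label under which their RIP values were the higher ones. Other hosts went the other way. CDKN2C had its higher folds in DLD-1, at RIP values of 2.41 FPKM under SW480 and 1.44 FPKM under DLD-1. C1orf210, with a 5' UTR peak only in SW480, had RIP values of 6.78 and 21.25 FPKM. DNAJC6, with one only in DLD-1, had 4.40 and 0.262 FPKM. These are single hosts, and whether folds follow the RIP labels over all hosts was not tested.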

How the data were processed

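SW480 and DLD-1 cells were profiled by Input, acRIP and RIP sequencing with 1 library per group, grouped by the sample titles. The authors deposited peak lists per line and a list named for the group, read here as called on the pooled libraries, on GRCh38. Each deposited peak has a p-value, scores that are the base-10 logarithms of p and FDR, a fold (the ratio of acRIP over Input within the peak), an annotation and a count of motif sites. For 2 SW480 and 1 DLD-1 5' UTR peaks the FDR cell holds a spreadsheet error and was read as below 0.05. The peak caller is not given in the sources used here. The submitters' processing notes name cutadapt 2.5 and HISAT2 2.1.0 without a role. For RIP-seq the authors deposited FPKM values per gene, and a second deposited table gives Input values of the acRIP experiment, whose unit is unnamed and was read as FPKM. It is the Input quoted for peaks, and the first table's Input is the one under RIP. The study's text speaks of IgG controls, whereas labels and columns name Input. The 3 columns of the authors' ratios of RIP over Input were not used. Library totals are not in these files, so depth is unknown. From low genes, the depth of the libraries labelled Input SW480, RIP DLD-1 and Input DLD-1 relative to RIP SW480 was 0.493, 0.85 and 0.456.

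Peaks with the annotation five_prime_utr were joined where at least 1 base of their blocks overlapped on the same strand (pandas 2.3.3, scipy 1.17.1). The joining was tested on simulated data. Starts and sequences came from RefSeq tables (GRCh38.p14), with site letters read at the listed coordinates and host symbols matched through Ensembl identifiers. Log ratios used a pseudocount of 1 FPKM, which understates changes of low genes. The named regions were the 10 shared ones with the highest smaller fold, 5 per line with the highest fold and no overlap, the 5 with the most sites, any on the genes the study followed, and up to 4 hosts per gene list. These regions and lists were chosen with earlier results of these data known. Alternatives concerned p-value, FDR, biotype, overlap, length, pseudocount, Input filter, pairing and centring. Further overlap and position subsets were added after seeing the data. Some site sequences are not reported here.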

Additional observations from a re-analysis of the deposited data

Results flagged for a closer look

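For 9 named hosts of 5' UTR peaks with an Input of at least 1 FPKM in both lines, NAT10 RIP lay above the Input of its own label in 1 line and below it in the other. The difference between the lines rests on 1 library per group and was not tested. The log2 ratio in the library labelled SW480 minus that in the library labelled DLD-1 was 6.14 for MMP14, 2.23 for FTH1, 1.38 for PPM1F and 1.21 for RUNX1. It was -2.09 for CDCA8, -1.89 for PKMYT1, -1.66 for LMNB1, -1.17 for TCF19 and -0.89 for DDX21. Below that Input level PHLDA3, CDKN2C, CCR10, HAUS7 and AC020915.6 had opposite signs too, with 4.59 and -3.90 for PHLDA3. Over the Input of the other label, PHLDA3 had 0.26 and 0.43, MMP14 0.23 and 0.33, and FTH1 0.62 and 1.13. There CDCA8 had 0.41 and 0.11, PKMYT1 -0.62 and -0.37, LMNB1 -0.14 and -0.73, and DDX21 0.28 and 0.14. PPM1F (-0.16 and 0.33), RUNX1 (-0.35 and 0.13) and TCF19 (-0.19 and 0.22) had opposite signs over that Input as well. The labels of the RIP and Input libraries go against each other, as KRT20 shows, and the crossed labels and a difference between the lines cannot be told apart in these values.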

How the results depend on the processing

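Of 86 alternatives over 32 results, 68 left the value within its interval or, for a count, within 1.5 times. With peaks under the median p-value of their list, 112 regions and 6 shared ones remained and the SW480 share fell to 0.548%. With partners of any annotation, 33 regions overlapped the other line. With single-block peaks of at most 300 bases, the DLD-1 median fold was 10.2, its ratio to CDS peaks turned from 0.984 to 1.02, and the motif share lay 31.1 (SW480) and 28.0 (DLD-1) percentage points above that of 3' UTR peaks, against 22.6 and 16.7. Among peaks at or above the median fold, the DLD-1 motif share lay only 1.32 points above that of CDS peaks, against 8.02. Hosts with RIP at least 2-fold above Input numbered 8 in SW480 at an Input of at least 5 FPKM, and 10 (SW480) and 26 (DLD-1) over the opposite Input. COL1A1 dropped out at an Input of 1 FPKM, leaving 0 markers of other cells. In subsets added after seeing the data, overlap with the other line was 10.8% and 4.39% for single-block peaks, 38.3% and 16.7% off whole fold steps, and 21.4% in DLD-1 at or above the median fold. The cause of these shifts was not tested. No paired analysis was possible because each group held 1 library. Depth is unknown, so the absence of a peak in 1 line is not the absence of ac4C there.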

Other observations

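Of the 105 SW480 5' UTR peaks, 81 overlapped a peak of the pooled list, 76 of them a 5' UTR one, and of the 215 DLD-1 peaks 158 and 146 did. FTH1, with 8 sites, and TFDP1, at a fold of 91.6, are among those the pooled call lacks, and the CDCA8 region is a CDS peak in the pooled list. The Input level of hosts also differed by list. The median was 5.06 FPKM over hosts of SW480 5' UTR peaks, below the 8.13 FPKM of CDS hosts and 8.49 FPKM of 3' UTR hosts in that list. In DLD-1 the medians were 8.38, 8.56 and 8.57 FPKM. For 11 SW480 hosts and 10 DLD-1 hosts the Input was at 0 FPKM in the line that had the peak. The same held for 163 of 1877 CDS hosts and 216 of 3943 3' UTR hosts in SW480, and for 187 of 3420 and 173 of 3902 in DLD-1.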
